A study of Mus musculus with 12 samples.

Results

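Alternative cassette exons, the internal exons that a mature mRNA can either include or skip, were described in CD8+ T cells by what their length does to the reading frame. The members were 3752 of the 88416 cassette exons longer than 27 bases in the table of exon use that compared Ag+Costim with Ag cells. They were chosen by measured values. An exon was kept when the mean of its percent spliced in (Psi, the fraction of reads at an exon that include it, from 0 to 1) over both groups lay from 0.1 to 0.9 and when its entropy, a measure of how varied the splicing event is, was above 0. Of the members, 1690 (45.04%) had a length divisible by 3 and 2062 had another length, 1056 with 1 base over a whole number of codons and 1006 with 2 bases over. They lay in 2340 genes, of which 1573 held 1 member and 382 held members of both classes. Neither Psi value is replicated: each is the authors' pooled value for a group, so Psi differences are given as description with no test.

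RNA-seq was made from OT-I cells, CD8+ T cells that carry a transgenic T cell receptor for the ovalbumin peptide SIINFEKL on the C57BL/6J background, and, per the study's methods, came from donors lacking Rag1 or Rag2. All transferred cells went into C57BL/6J recipients, which keep their own lymphocytes. Recipients in the Ag group (5 libraries) received the peptide with control rat IgG, and those in the Ag+Costim group (5 libraries) received the peptide with agonist antibodies to CD134 (OX40) and CD137 (4-1BB). Spleen and lymph node cells were sorted, at day 4 by the labels, while the Naive group (2 libraries) was purified from OT-I mice without transfer or stimulation. The labels number the libraries as separate samples and do not name the animals, so p-values measure the spread between these libraries.

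An exon whose length is a multiple of a codon can be skipped without changing the frame of what follows, so both isoforms may encode protein. An exon of any other length shifts the frame, and the shifted frame usually runs into a stop codon early. An mRNA with a stop well upstream of its last exon junction is a target of nonsense-mediated decay, a surveillance pathway that cells also use to set the level of many splicing factors through so-called poison exons. Activated T cells are known to switch exons in surface receptors, kinases and transcription factors.

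The sequences shown first carry the contrasts described in the results. They are read from annotated mouse transcripts (GENCODE vM21, build mm10), 5′ to 3′ on the strand of the gene. The first pair have lengths divisible by 3. The Camk2g exon (chr14:20747819-20747851, minus strand, 33 bases, coding) is from the gene for a subunit of the calcium- and calmodulin-dependent kinase II, and the Ptprc exon (chr1:138120020-138120166, minus strand, 147 bases, coding) is one of the alternative exons of CD45, the phosphatase of the T cell surface.
Camk2g: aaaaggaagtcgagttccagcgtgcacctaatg
Ptprc: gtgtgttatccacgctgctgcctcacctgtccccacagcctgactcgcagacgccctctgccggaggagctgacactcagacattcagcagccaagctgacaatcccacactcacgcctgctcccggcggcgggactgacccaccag

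The next 4 families are shown because related genes hold an alternative exon of the same length, none of them divisible by 3, at alike sequence. Capitals mark bases that are identical in all the exons shown of a family. Clk1 (chr1:58420121-58420211, minus) and Clk4 (chr11:51273078-51273168, plus) encode kinases that phosphorylate SR splicing factors, and 85 of 91 bases (93.4%) are identical.
Clk1: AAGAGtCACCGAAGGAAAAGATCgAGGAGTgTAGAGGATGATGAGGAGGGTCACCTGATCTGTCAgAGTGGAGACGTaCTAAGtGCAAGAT
Clk4: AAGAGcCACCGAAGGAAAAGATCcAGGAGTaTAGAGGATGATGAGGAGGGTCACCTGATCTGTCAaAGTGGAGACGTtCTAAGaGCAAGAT
Rbm5 (chr9:107759776-107759849, minus), Rbm10 (chrX:20641183-20641256, plus) and Rbm6 (chr9:107833434-107833507, minus) encode related RNA-binding proteins that act in splice site choice, and 44 of 74 bases (59.5%) are identical in all 3.
Rbm5: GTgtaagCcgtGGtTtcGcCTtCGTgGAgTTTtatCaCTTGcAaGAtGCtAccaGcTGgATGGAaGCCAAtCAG
Rbm10: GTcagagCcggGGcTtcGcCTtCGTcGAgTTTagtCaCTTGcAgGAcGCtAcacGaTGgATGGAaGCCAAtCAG
Rbm6: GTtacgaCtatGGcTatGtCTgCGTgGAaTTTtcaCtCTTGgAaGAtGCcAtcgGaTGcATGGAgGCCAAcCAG
Mbnl1 (chr3:60622146-60622240, plus) and Mbnl2 (chr14:120404638-120404732, plus) encode muscleblind splicing factors, and 81 of 95 bases (85.3%) are identical.
Mbnl1: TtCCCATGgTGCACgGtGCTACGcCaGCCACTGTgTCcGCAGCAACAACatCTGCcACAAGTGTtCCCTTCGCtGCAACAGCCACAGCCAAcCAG
Mbnl2: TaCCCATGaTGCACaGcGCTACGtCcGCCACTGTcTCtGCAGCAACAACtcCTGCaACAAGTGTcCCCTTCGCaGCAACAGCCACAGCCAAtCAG
Ewsr1 (chr11:5079485-5079519, minus) and Taf15 (chr11:83497262-83497296, plus) encode FET family RNA-binding proteins, and 26 of 35 bases (74.3%) are identical.
Ewsr1: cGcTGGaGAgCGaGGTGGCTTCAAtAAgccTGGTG
Taf15: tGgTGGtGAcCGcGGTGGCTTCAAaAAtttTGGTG

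The last pair come from exons whose length is divisible by 3 but whose insertion into the coding transcript brings a stop codon, shown in capitals, in the reading frame. The 30 bases shown of the Tial1 exon (chr7:128458597-128458626, minus) hold the stop as codon 29 of the isoform, and the 30 bases shown of the Luc7l2 exon (chr6:38554998-38555027, plus) hold it as codon 32. Tial1 encodes an RNA-binding protein of stress granules and splicing, and Luc7l2 a protein of the U1 snRNP. Both exons are annotated as 5′ untranslated in the including transcript with the most counts.
Tial1: tcagaaaacaatatggtgtttaTAGcctag
Luc7l2: cgcctgtgtgccacTGAaaatcgtgccgat

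The libraries held 24006053 to 49294934 gene counts. The lowest total was that of Ag replicate 4, and those of the other libraries were at least 40028682. Cd4 was at most 2.39 CPM, counts scaled to a library of equal size, in any library, while summed CPM of 7 T cell markers was 7712 to 10258 for Ag, 3911 to 5367 for Ag+Costim and 10343 to 11014 in Naive. Markers of other cells also moved with the groups: 4 B cell genes summed to 101 to 154 CPM in Ag and 21.7 to 54.8 in Ag+Costim, 6 myeloid genes to 250 to 374 and 186 to 270, and 5 erythroid genes to 588 to 6720 and 14.002 to 210. The 5 cycling genes summed to 426 to 921 CPM for Ag, 1779 to 2243 for Ag+Costim and 34.0 to 35.7 in Naive. No gene of these lists was at 0 in every library. The part of these differences in the exon values was not tested, and in bulk RNA fewer cells of a type and less RNA per cell cannot be told apart.

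Among exons that are nearly always included, 38.2% of 78305 with a mean Psi above 0.9 had a length divisible by 3. The share was higher among members (45.04%) and among the 508 exons with a mean Psi below 0.1 (56.3%). A further 5851 exons had a mean Psi within the limits but an entropy of 0, and 38.2% of these were divisible, with 1 of the other class higher and 1 lower by more than 0.1 and none of the divisible class. Members of the divisible class had a median length of 108 bases (quartiles 72 and 150, range 30 to 5331) and those of the other class 112 bases (quartiles 79 and 154.8, range 28 to 5527), with median GC contents of 49.6% and 49.0%. The most frequent length was 72 bases, with 44 members.

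The share of frame-keeping exons fell along the Psi scale in coding exons. Wholly coding members with a mean Psi from 0.1 to 0.2 were divisible in 79.9% of cases (exact binomial 95% interval 72.1 to 86.3, which covers counting error only). The next bins of 0.1 gave 77.2%, 76.1%, 63.0%, 56.1%, 46.1% and 49.2%. In the top bin, from 0.8 to 0.9, 41.2% were divisible (38.8 to 43.6), and that bin held 2004 of the 3752 members when all places are counted. Members that were not wholly coding showed no such slope, with 35.5% in the lowest bin, 30% to 40.8% in the others and 36.9% in the highest. Exons of 1 gene are not independent, and mean Psi also chose the members.

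**Figure D1:**
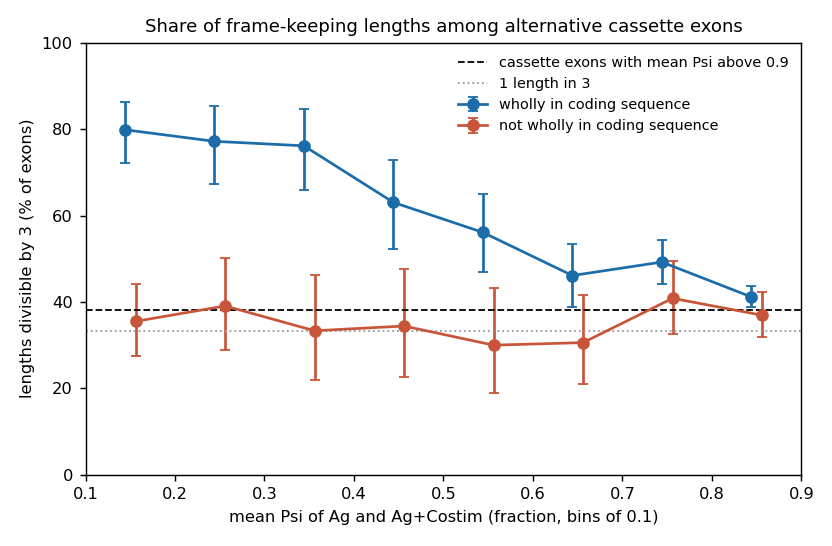
Percent of members whose length is divisible by 3 (y axis) in bins of 0.1 of mean Psi (x axis), for exons wholly in coding sequence and for the others, with exact binomial 95% intervals, the level of exons with a mean Psi above 0.9 (dashed) and 1 length in 3 (dotted). Coding exons go from 79.9% in the lowest bin to 41.2% in the highest, while the others stay between 30% and 40.8%.

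Annotation split the members in the same way. Of the 3752, 3742 matched an annotated exon exactly, and 2334 had both an including and a skipping transcript in the annotation. Among those 2334, 48.3% were divisible, against 39.7% of the 1418 members for which no skipping transcript is annotated. Within the 2334, wholly coding exons were divisible in 54.1% of 1589 cases, exons of the 5′ untranslated region in 28.2% of 333, and exons that join coding and untranslated sequence in 40.6% of 197. Exons of transcripts without a coding sequence were divisible in 43.2% of 183 cases, and 14 of 32 exons of the 3′ untranslated region were. A total of 530 members were skipped by a transcript annotated to nonsense-mediated decay, and 34.2% of these were divisible. Of the 951 included in such a transcript 41.1% were divisible, and of the 2495 with neither 47.9%.

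The reading frame was then followed through each exon. For every member with a coding transcript, the isoform that differs by that exon alone was built, and a stop more than 50 bases before the last exon junction was called early. An early stop arose for 1290 of 1588 members of other length (81.2%) and for 37 of 1439 divisible members (2.57%). The largest classes were 1189 exons of other length in 813 genes whose skipping gives an early stop, and 1102 divisible exons whose skipping keeps the frame and the stop. A smaller class was 101 exons of other length whose inclusion into an annotated transcript gives an early stop. The stop lay within the exon in 66 cases. On inclusion, 31 divisible exons also gave an early stop inside the exon, as the Tial1 and Luc7l2 exons shown do. The built isoforms were predicted from annotation and were not observed as whole molecules. Each differs from its reference by 1 exon alone, so exons that annotated transcripts swap or skip together were counted in these classes too. Examples are the H2afy exons and the Tcf3 exon of 224 bases.

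Exon use was next set side by side in Ag and Ag+Costim cells. The median Psi of divisible members was 0.779 in Ag and 0.787 in Ag+Costim, and that of the others was 0.813 and 0.839. A difference of more than 0.1 was seen upward in 251 divisible members (14.9%) and downward in 202 (11.95%). In the other class it was seen upward in 394 (19.1%) and downward in 220 (10.7%). Over all 88416 cassette exons the same difference was seen upward in 1.48% and downward in 0.532%. Exons of mean Psi above 0.9 that passed this size were nearly all higher in Ag+Costim in both classes, at 267 against 17 and 393 against 28, so the tilt upward is not particular to the members.

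**Figure D2:**
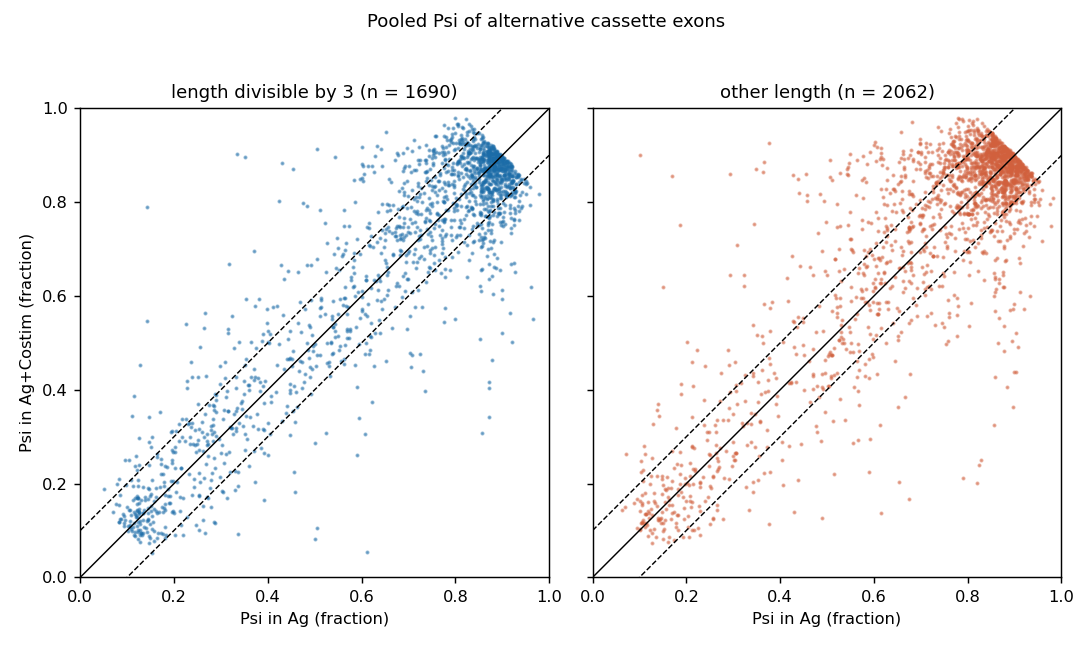
Pooled Psi in Ag (x axis) against Ag+Costim (y axis), 1 point per exon, for the 1690 members of length divisible by 3 and the 2062 of other length, with the diagonal (solid) and differences of 0.1 (dashed). More points of other length lie above the upper dashed line (394) than below the lower one (220), against 251 and 202 for the divisible class, and the sloping edges at low and high Psi are the limits of the rule.

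The upward tilt of the other class lay mostly in exons whose skipping gives an early stop. In that class 249 of 1189 (20.9%) were higher in Ag+Costim by more than 0.1 and 89 (7.49%) were lower, and the median Psi was 0.840 in Ag and 0.865 in Ag+Costim. When the skipping isoform of an exon of other length had a later stop, 37 of 234 were higher and 32 lower. Divisible exons whose skipping keeps the frame gave 169 higher and 132 lower of 1102, and divisible exons whose inclusion keeps the frame gave 32 and 35 of 279. For exons of other length whose inclusion gives the early stop the order was turned, with 20 of 101 higher and 24 lower. These are counts of pooled values with no test of the difference between classes.

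**Figure D3:**
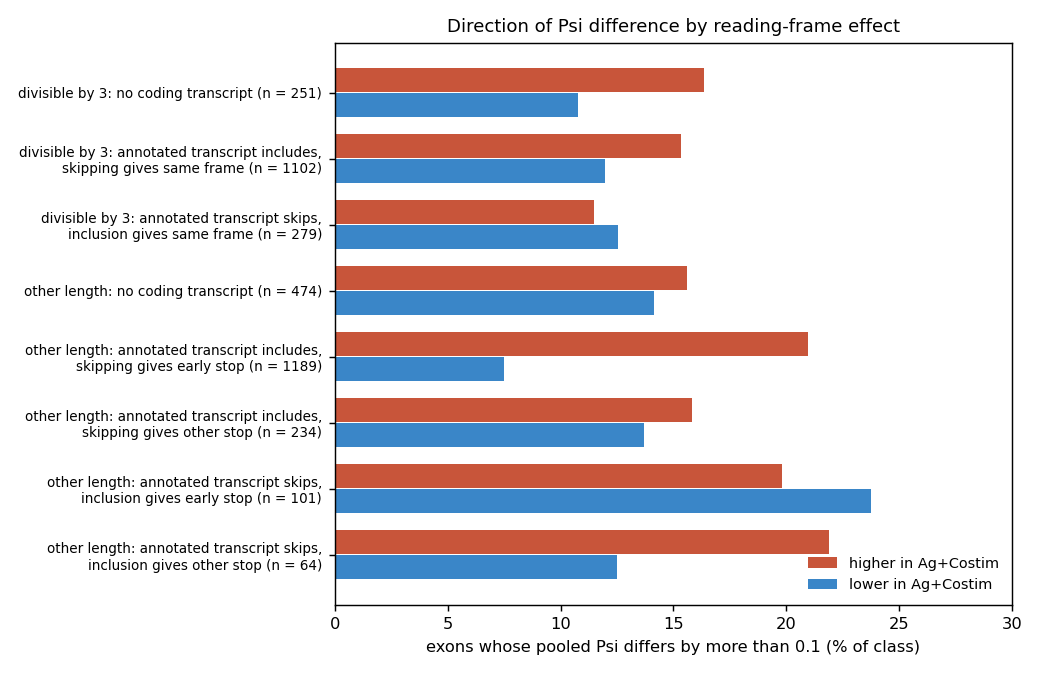
Percent of exons (x axis) whose pooled Psi is higher or lower in Ag+Costim than in Ag by more than 0.1, by length class and by what the isoform without or with the exon encodes, for classes of at least 50 exons. Exons of other length whose skipping gives an early stop show the widest gap, 20.9% higher against 7.49% lower.

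The count of early-stop exons was looked at within strata. With an annotated skipping transcript 108 of 546 were higher and 44 lower, and without one 141 of 643 were higher and 45 lower. In genes with a mean level above 3 on the log2 CPM scale it was 180 and 42 of 857, and above 6 it was 20 and 1 of 125. By mean Psi, exons of other length between 0.1 and 0.5 were higher in 46 and lower in 48 of 327 cases, while between 0.5 and 0.8 they were higher in 166 and lower in 110 of 541. Between 0.8 and 0.9 they were higher in 182 and lower in 62 of 1194, and divisible exons of that range in 93 and 69 of 810. In exons of other length the tilt was thus seen above a mean Psi of 0.5 and not below it. Divisible exons gave 65 higher and 45 lower of 428 between 0.1 and 0.5, and 93 and 88 of 452 between 0.5 and 0.8. In genes above 7 on the log2 CPM scale members of other length gave 7 higher and 7 lower of 85, and divisible members 12 and 6 of 148.

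A readout that the rule did not use was the share of transcript counts that falls on transcripts annotated to nonsense-mediated decay, over all genes and per library. It was 2.18%, 2.21%, 2.16%, 2.05% and 2.11% in the 5 Ag libraries. In Ag+Costim it was 1.64%, 1.55%, 1.61%, 1.79% and 2.02%, and in Naive 2.57% and 2.62%. The 3 groups did not overlap. Ag+Costim averaged 1.72% ± 0.190 (SD, n = 5), which differed from the 2.14% ± 0.0630 (SD, n = 5) of Ag by a value of -0.420 percentage points (two-sided exact permutation test, p = 0.00794, the smallest this design allows). The p of 0.0952 for Ag against Naive, with a difference of -0.448 percentage points, is likewise the smallest that 5 against 2 libraries allow. The value of Ag+Costim replicate 5 rests in part on 1 gene. Lars2, a mitochondrial leucyl-tRNA synthetase, placed 0.337% of that library's counts on such a transcript and 0 in the other 11 libraries. Without Lars2 the Ag+Costim libraries span 1.56% to 1.79% and the difference is -0.482 percentage points, at the same p. In the genes that hold members the share without Lars2 was 3.42% to 3.82% for Ag, 2.49% to 2.91% for Ag+Costim and 3.86% to 3.91% in Naive. This test was chosen after the data were seen.

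Inclusion was also measured in each library from the deposited transcript counts. The including share is the length-corrected percent of the counts of including and skipping transcripts that falls on the including ones. It could be computed for 2177 members (1059 divisible and 1118 other), 157 more having too few counts. Across these 2177 exons pooled Psi and the mean share had a Pearson correlation of 0.718 (Spearman 0.679) in Ag and 0.742 (0.710) in Ag+Costim, both drawn from the same reads and given as description. For the Ag+Costim minus Ag difference it was 0.303 (0.332). Where the Psi difference was above 0.1, 428 of 607 exons (70.5%) had a share difference of the same sign, and above 0.2 it was 125 of 162 (77.2%). The median share per library was 67.3% to 73.4% for divisible members and 77.3% to 82.4% for the others in Ag, and 66.5% to 69.1% and 77.9% to 81.0% in Ag+Costim. The top of the Ag ranges was Ag replicate 4, the library with the lowest count.

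Few exons separated the groups in every library. The Ag+Costim shares lay wholly above the Ag shares in 29 divisible and 24 other members, against 1.9% of all 6570 cassette exons tested, and wholly below in 26 and 24, against 1.99%. As shares of the members tested these are 2.74% and 2.15% above and 2.46% and 2.15% below, near the background. Against Naive, the Ag shares were wholly above in 72 divisible and 76 other members, with a background of 8.1%, and wholly below in 99 and 102, with a background of 6.77%. Above Naive that is 6.8% of members of either class, and below Naive 9.35% of divisible members and 9.12% of the others. The rule set Psi limits on the activated groups and none on Naive. Members and all exons tested are therefore not alike in this comparison.

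The test of including against skipping counts (edgeR quasi-likelihood, adjusted over all 6570 exons) called 5 exons between Ag+Costim and Ag, or 0.0761%, and 3 of these were members, all lower in Ag+Costim. At an unadjusted p below 0.05 there were 180 of the 2177 members tested beside 527 of all 6570 exons. DESeq2 called 202 members beside 592 of all exons, and limma 12 beside 33. Leaving out Ag replicate 3, Ag replicate 4, Ag+Costim replicate 5 or either Naive replicate gave 17, 8, 2, 19 and 19 exons, and without Ag replicate 3 the members were 8. They were 5 without Ag replicate 4 or Ag+Costim replicate 4 and 6 without either Naive replicate, and all of these held the 3, while without Ag+Costim replicate 5 the Cdk19 call was lost. The median standard error over members was 1.11 on the log2 scale. In simulated data for this comparison the test found 80 of 200 changed exons at a log2 change of 6, 1 of 200 at 3 and 0 of 200 at 1, so a change of moderate size was not detectable. The called members were exons of Camk2g, Cdk19 and Depdc5. Only the Camk2g exon also had a Psi difference above 0.1 of the same sign and a gene above the level set for naming.

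The Camk2g exon of 33 bases gave including shares of 89.4%, 85.8%, 94.2%, 91.5% and 93.8% in Ag. They were 2.06%, 1.54%, 1.95%, 0% and 0% in Ag+Costim and 0.480% and 0.228% in Naive. The 0 of 645 and 0 of 443 counts allow up to 0.465% and 0.677% of counts, before the correction for length, by counting error alone. Ag was high in all 5 libraries and the other 2 groups were low, with no overlap. Pooled Psi pointed the same way, at 0.612 in Ag and 0.0544 in Ag+Costim. The fitted log2 change was -11.92 ± 1.35 (SE) for Ag+Costim against Ag (edgeR adjusted p = 0.00934) and 12.48 for Ag against Naive (adjusted p = 0.0243, or 0.117 and 0.191 without Naive replicate 1 and 2 and 0.0503 without Ag replicate 1). The annotated reference transcript skips this exon and has 495 codons before its stop, and with the exon the stop is codon 507. A second member of Camk2g, of 69 bases, went from 0.872 in Ag to 0.417 in Ag+Costim by Psi. Camk2g itself was at 7.83 to 18.9 CPM for Ag, 11.99 to 16.9 for Ag+Costim and 19.3 to 19.98 in Naive, so the exon shares rest on 324 to 770 counts per library.

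The Cdk19 exon of 58 bases was the one called member of other length. Cdk19 encodes a kinase of the Mediator complex, and skipping this exon gives a stop at codon 165 of what is otherwise a protein of 501. No count fell on skipping transcripts in Ag, so the share was 100% in all 5 libraries. The exon thus met the minimum of skipping counts through Ag+Costim and Naive alone, and its fitted change rests on a floor in Ag. It was 81.3%, 49.3%, 57.9%, 49.1% and 58.7% in Ag+Costim and 81.7% and 86.5% in Naive, with Ag+Costim wholly below Ag. Pooled Psi was 0.908 in Ag and 0.821 in Ag+Costim. It placed some skipping in Ag where the transcript counts placed none, and which of them holds was not tested. The edgeR adjusted p was 0.0101, and without Ag+Costim replicate 5 it was 0.0755. The gene rose in Ag+Costim by 0.41 ± 0.12 (SE) on the log2 scale (edgeR adjusted p = 0.00814), though not under upper-quartile scaling, where the adjusted p was 0.142.

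The Depdc5 exon of 66 bases showed how far the readouts can part. Depdc5 is a subunit of GATOR1, which restrains mTORC1. Its share was 100% in 4 Ag libraries and 96.2% in the other, 1.29% to 3.97% in Ag+Costim and 3.03% and 4.93% in Naive. Its skipping counts too came almost wholly from Ag+Costim and Naive. Pooled Psi was 0.147 in Ag and 0.0880 in Ag+Costim, low in both groups. Transcript counts thus put the exon in nearly every Ag molecule where junction reads did not, and which of them holds was not tested. The gene level rose by 1.89 ± 0.15 (SE) on the log2 scale in Ag+Costim (edgeR adjusted p = 3.1e-07).

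Between Ag and Naive cells the test called 27 exons (0.411%), 13 of them members, 10 divisible and 3 of other length. Of the 13, 3 were higher in Ag, the Camk2g, Cdk19 and Depdc5 exons, and 10 were lower. Since the Psi limits of the rule apply to Ag and Ag+Costim alone, the balance of directions against Naive is not independent of the rule. DESeq2 called 153 of the 2177 members tested beside 469 of all 6570 exons. An unadjusted p below 0.05 was seen for 156 members beside 519 of all exons. Only 2 Naive libraries were made. Without Naive replicate 1, 9 members were called and without Naive replicate 2, 3, and either set held the Zbtb32 and Depdc5 exons alone of the 13. With Ag and Naive fitted alone 0 members were called, at adjusted p of 0.0678 to 0.455 for the 13, and with no minimum counts 7 were. Leaving out Ag replicate 1 or 2 or Ag+Costim replicate 3, 4 or 5 gave 7, 8, 8, 7 and 8 members. Between Ag+Costim and Naive, 25 exons were called (0.381%), 8 of them members, 7 divisible and 1 other, all lower in Ag+Costim. It was 5 members without Ag+Costim replicate 1 or 2 and 2 without Naive replicate 2, and with either Naive library left out 1 of the 8 was held. This comparison shares its libraries with the other 2.

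Several of the exons lower than in Naive had no skipping counts in either Naive library, so they met the minimum of skipping counts through the activated libraries alone. The Zbtb32 exon of 69 bases, in a BTB zinc finger repressor of lymphocytes, gave 100% in both Naive libraries, 78.9% to 82.6% in Ag and 81.9% to 86.5% in Ag+Costim (edgeR adjusted p = 0.00168 against Ag). The Naive shares rest on 97 and 66 counts, since the gene is low there, and the Ag shares on 9987 to 31289. The Stx11 exon of 135 bases, 5′ untranslated in the gene of a SNARE protein of cytotoxic granule release, gave 100%, 47.1% to 68.8% and 44.8% to 74.7% in the same order. Likewise the Ssbp4 exon of 60 bases gave 100%, 89.2% to 99.0% and 89.2% to 96.4%, and the Depdc1a exon of 831 bases, in a mitotic gene, 100%, 30.7% to 74.96% and 33.6% to 41.9%. In all 4 the activated groups lay below Naive without overlap, though the Depdc1a shares in Naive rest on 18 and 30 counts. With 1 Naive library left out the adjusted p was 0.0599 to 0.0745 for Stx11 and Ssbp4 and 0.117 and 0.201 for Depdc1a.

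The Cmah exon of 138 bases, in the enzyme that makes N-glycolylneuraminic acid, was called with skipping counts in all 3 groups, at shares of 97.5% and 98.1% in Naive, 89.2% to 93.3% in Ag and 90.7% to 93.7% in Ag+Costim. The Itpr2 exon of 99 bases, in an inositol trisphosphate receptor, gave 47.8% and 58.7%, 24.3% to 31.4% and 11.3% to 31.9%. The remaining called exons were the Palm exon of 132 bases, the 5′ untranslated Zfp821 exon of 116 bases, and the H2-Q7 exons of 50 and 63 bases. The Palm and Zfp821 exons also had no skipping counts in either Naive library. Their Naive shares of 100% rest on 123 and 249 counts for Palm and 82 and 118 for Zfp821. The H2-Q7 exons share the same transcripts and so count once, and their gene has near-identical copies, so their values are uncertain.

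**Figure D4:**
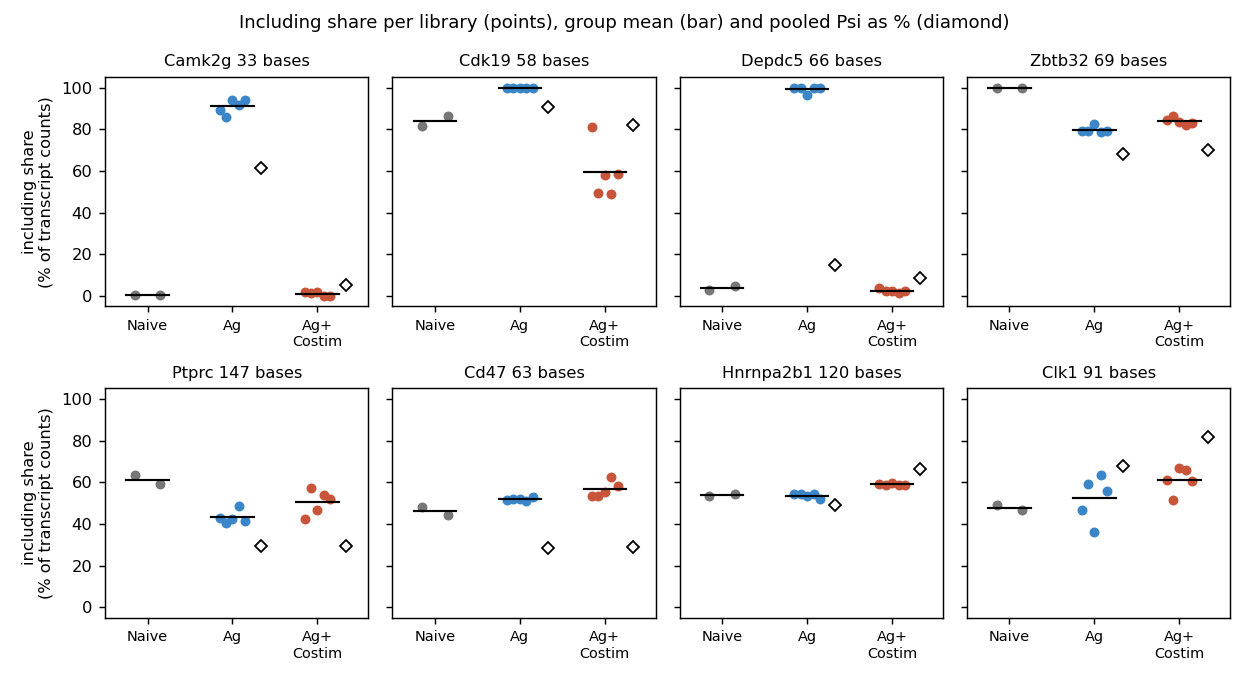
Including share in percent of transcript counts (y axis) for 8 exons in Naive (2), Ag (5) and Ag+Costim (5) libraries, 1 point per library with the mean as a bar and the pooled Psi, in percent, as a diamond. Camk2g and Depdc5 are high in Ag alone and Zbtb32 is at 100% in Naive alone. The diamonds lie outside the range of the points of their group for all 8 exons, farthest for Depdc5 in Ag.

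T cell genes held 32 members in 24 genes of a list of 78. Of the 22 divisible ones, 2 were higher and 3 lower by more than 0.1 in Psi, and of the 10 others 2 and 2. The Ptprc exon of 147 bases had the same pooled Psi, 0.295, in both groups. Its including shares were 40.5% to 48.8% for Ag, 42.5% to 57.2% for Ag+Costim and 59.1% and 63.5% in Naive. Naive lay above both activated groups, while Ag and Ag+Costim overlapped, and the difference from Naive was not called (edgeR adjusted p = 0.502). The Cd47 exon of 63 bases, in a surface protein that signals against phagocytosis, ran the other way. Its shares were 44.3% and 48.0% in Naive, 51.2% to 53.1% in Ag and 53.3% to 62.5% in Ag+Costim. Its groups did not overlap, but the fit gave adjusted p values of 0.961 for Ag+Costim against Ag and 1.0 for Ag against Naive.

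Among other members of the list that lie in highly expressed genes, the Arhgef1 exon of 168 bases had a Psi of 0.803 in Ag and 0.881 in Ag+Costim, with shares of 61.2% to 87.7% and 63.2% to 72.2%, and of 44.9% and 50.7% in Naive. Its mean share was 77.0% in Ag and 69.0% in Ag+Costim, opposite in sign to Psi. The Cd6 exon of 117 bases went from 0.749 to 0.792, but its shares overlapped and had the lower mean in Ag+Costim (72.0% against 73.7%). The Tcf7 exon of 93 bases, in the factor TCF-1 of naive and memory T cells, went from 0.709 to 0.609. The Traf1 exon of 67 bases, 5′ untranslated in an adaptor of CD134 and CD137 signalling, went from 0.626 to 0.4998, though its shares of 67.1% to 71.2% and 64.4% to 72.4% overlapped. The Stat4 exon of 129 bases went from 0.930 to 0.854, while its shares went up without overlap, from 89.9% to 95.2% in Ag to 96.7% to 97.4% in Ag+Costim, so the readouts gave opposite signs (edgeR adjusted p = 0.202).

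Genes of the splicing machinery held 68 members in 49 genes. Of 35 divisible ones 3 were higher and 3 lower in Ag+Costim by more than 0.1, and of 33 others 11 were higher and 4 lower. Hnrnpa2b1, an abundant hnRNP that binds and exports RNA, held 3 of them. Its coding exon of 120 bases had a Psi of 0.491 in Ag and 0.666 in Ag+Costim, and shares of 54.3%, 54.3%, 53.2%, 54.4% and 51.7% against 59.4%, 58.7%, 59.7%, 58.6% and 58.9%. The groups did not overlap and the spread within each was small, and the Naive shares of 53.5% and 54.5% lay with Ag, but the adjusted p of the edgeR fit was 0.801. Its 3′ untranslated exon of 136 bases went from 0.352 to 0.207 by Psi, with overlapping shares of 50.9% to 74.99% and 58.4% to 69.3%. Its exon of 36 bases went from 0.106 to 0.143. The gene level rose by 1.01 ± 0.07 (SE) on the log2 scale (edgeR adjusted p = 1.6e-07).

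Other named exons of splicing genes moved little by pooled Psi. They were the Srsf7 exon of 36 bases (0.899 in Ag and 0.893 in Ag+Costim), in an SR protein, the Srrm2 exon of 271 bases (0.902 and 0.874), in a spliceosome scaffold, the Hnrnpab exon of 141 bases (0.453 and 0.482), in an hnRNP, and the Puf60 exon of 51 bases (0.211 and 0.291), in a factor of 3′ splice site recognition.

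The equal-length families shown by sequence differed among themselves in how they moved. Clk1 went from 0.679 in Ag to 0.817 in Ag+Costim, while Clk4, with 93.4% of the same bases, was at 0.635 and 0.616. Skipping either exon gives an early stop, at codon 136 of 483 in Clk1 and codon 135 of 481 in Clk4. The Clk1 shares overlapped, at 36.2% to 63.7% in Ag and 51.4% to 66.8% in Ag+Costim. Both genes fell in Ag+Costim, Clk1 by 1.03 ± 0.15 and Clk4 by 0.91 ± 0.11 (SE) on the log2 scale (edgeR adjusted p = 5.0e-05 and 1.2e-05).

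In the Rbm family the Rbm5 exon went from 0.773 to 0.915 and the Rbm10 exon from 0.783 to 0.924, while the Rbm6 exon was at 0.825 and 0.839. Skipping gives an early stop in all 3. The Rbm5 shares, 44.8% to 62.5% in Ag and 32.5% to 64.1% in Ag+Costim, overlapped. Their mean was 54.9% in Ag and 51.1% in Ag+Costim, opposite in sign to Psi. Gene levels did not run in parallel, since Rbm5 fell by 0.49 ± 0.08 (SE) on the log2 scale and Rbm10 and Rbm6 rose by 1.15 ± 0.09 and 0.79 ± 0.10 (edgeR adjusted p = 0.00015, 3.7e-07 and 2.6e-05).

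In the Mbnl and FET families Psi stayed close between the activated groups. Mbnl1 was at 0.886 and 0.870 and Mbnl2 at 0.266 and 0.255, with Mbnl1 the higher by Psi. The including shares gave the other order, at 54.8% to 87.3% in Ag and 48.9% to 71.9% in Ag+Costim for Mbnl1 and 91.3% to 97.98% and 94.3% to 95.9% for Mbnl2. Ewsr1 was at 0.845 and 0.874 and Taf15 at 0.679 and 0.693. The exons of 137 bases of Ago1 and Ago3, which encode Argonaute proteins, ran in opposite directions, from 0.662 to 0.909 and from 0.943 to 0.807, in genes with mean levels of 6 to 12 CPM. The exons of 138 bases of the transcription factors Mef2a and Mef2c are divisible by 3 and went from 0.539 to 0.479 and from 0.197 to 0.140 by Psi. The Mef2a shares overlapped and had the higher mean in Ag+Costim, 46.3% (35.6% to 51.6%) against 31.2% (22.8% to 39.2%) in Ag, opposite in sign to Psi. The Mef2c shares also had the higher mean in Ag+Costim, 48.1% against 17.8%, in a gene at 1.84 and 3.34 CPM, and ran from 0% to 100% and from 0% to 54.6%.

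**Figure D5:**
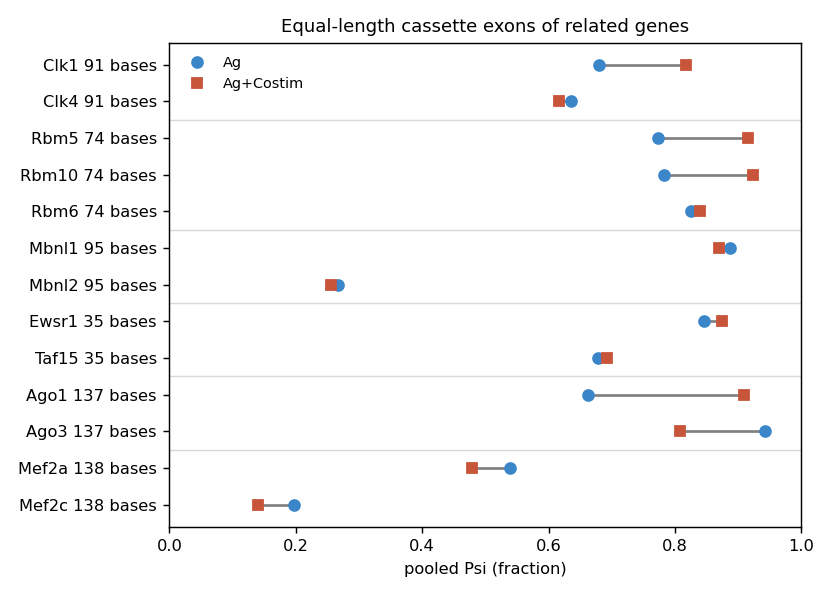
Pooled Psi (x axis) in Ag (circle) and Ag+Costim (square) for 13 equal-length exons of related genes, grouped by family with grey lines. Clk1, Rbm5, Rbm10 and Ago1 are higher in Ag+Costim by more than 0.1, Ago3 is lower by more than 0.1, and their relatives Clk4 and Rbm6 differ by less.

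Alike exons were looked for among all members, of which 54.96% were of other length. All 39173 pairs of members of equal length were compared base by base, and 217 pairs were identical at 60% of bases or more, 27 divisible and 190 of other length. They involved 112 members, 79 of other length. The largest group was 19 exons of 127 bases, 13 of them in genes named Zfp (zinc finger proteins), with mean Psi from 0.506 to 0.898, and the next 14 exons of 61 bases, 10 of them in Zfp genes. These groups gave 94 and 64 of the 190 pairs of other length, so the pair counts rest largely on them. Of the 19, 2 were higher and 3 lower by more than 0.1, and of the 14, 3 and 4. In 49 pairs at least 95% of bases were identical, so reads may be shared between copies and these values are uncertain.

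Neighbouring members were looked at as pairs, since exons that each shift the frame can restore it together. There were 506 pairs of adjacent members, 145 with both divisible, 187 with both of other length and 174 mixed. In 102 of the 187 (54.5%) the joint length was divisible by 3. Lengths with 1 and with 2 bases over were about equally frequent among members (28.1% and 26.8%). A joint length, or a difference in length, divisible by 3 thus arises about as often as not in unlinked exons. The counts of this paragraph lie near that and are not read as restored frames. A transcript that skips both exons was annotated for 147 of the 187, with a divisible joint length in 83, and 70 were used in place of each other in annotated transcripts, with lengths differing by a multiple of 3 in 36. H2afy, the histone macroH2A1, held such a pair of 91 and 100 bases. Its exon of 91 bases was at a Psi of 0.117 in Ag and 0.0886 in Ag+Costim and its exon of 100 bases at 0.861 and 0.903. Their shares were 37.8% to 50.1% and 49.9% to 62.2% in Ag. The counts that include either exon are those that skip the other, so these shares are complementary by construction and count as 1 readout. Tcf3, which encodes the E proteins E12 and E47, held exons of 224 and 236 bases at 0.740 and 0.253 in Ag and 0.801 and 0.191 in Ag+Costim, while the gene level rose by 1.35 ± 0.11 (SE) on the log2 scale (edgeR adjusted p = 2.8e-07). The Tcf3 shares, also nearly complementary, overlapped between Ag and Ag+Costim. Their means were 48.3% and 51.7% in Ag and 47.0% and 53.3% in Ag+Costim, opposite in sign to Psi.

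Apart from the H2afy pair given above, the named pairs of highest gene level were divisible, mixed or of uncertain reads. Sp100, a nuclear body protein, had exons of 54 and 75 bases at 0.847 and 0.713 in Ag and 0.756 and 0.736 in Ag+Costim. Add1, the cytoskeletal adducin, had exons of 87 and 34 bases at 0.121 and 0.109 in Ag and 0.157 and 0.280 in Ag+Costim. The shares of the Add1 exon of 87 bases were 37.9% and 49.0% in Naive, 4.53% to 21.5% in Ag and 3.96% to 19.8% in Ag+Costim, below Naive in every activated library (edgeR adjusted p = 0.289 for Ag against Naive). The H2-Q7 exons of 276, 50 and 63 bases gave 0.612, 0.578 and 0.583 in Ag and 0.747, 0.649 and 0.649 in Ag+Costim, with the limit on near-identical copies given above.

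The exons with the largest Psi differences were picked after their values were seen and are given as values, 1 per gene, among members with annotated including and skipping transcripts in genes above 3 on the log2 CPM scale. Outside that set lie larger ones, such as Slx4 (184 bases, 0.0999 to 0.9) and Ssx2ip (104 bases, 0.820 to 0.2004). Among divisible exons the largest falls after Camk2g were Ppip5k1 (63 bases, 0.857 to 0.307), Rpgrip1 (453 bases, 0.871 to 0.342), Luc7l2 (84 bases, 0.501 to 0.0825) and Macf1 (150 bases, 0.9001 to 0.522), and the largest rise was Setd4 (75 bases, 0.350 to 0.897). Ppip5k1 encodes an inositol pyrophosphate kinase and Macf1 a cytoskeletal crosslinker. The including shares of Ppip5k1 overlapped, at 92.1% to 100% in Ag and 5.99% to 100% in Ag+Costim, and those of Macf1 at 25.02% to 55.4% and 18.6% to 47.5%. Among exons of other length the largest falls were Zc3h4 (62 bases, 0.791 to 0.212), which restrains extragenic transcription, Mafg (31 bases, 0.674 to 0.168) and Hivep2 (82 bases, 0.653 to 0.202), which are transcription factors. The largest rises were Simc1 (233 bases, 0.457 to 0.816), D430042O09Rik (56 bases, 0.293 to 0.644) and Pik3c2a (104 bases, 0.457 to 0.803), a lipid kinase. Shares did not follow Psi in all of these. They were 0% to 14.6% in Ag and 0% to 10.4% in Ag+Costim for Mafg, and 0% to 100% in both for D430042O09Rik, with a lower mean in Ag+Costim (64.3% against 75.3%). The Hivep2 shares were 63.5% to 100% and 38.8% to 60.3%, without overlap and of the sign of Psi (edgeR adjusted p = 0.601), and those of Zc3h4 overlapped at 34.3% to 100% and 0% to 79.8%. For Luc7l2 the sign was opposite, and the Rpgrip1, Setd4, Simc1 and Pik3c2a shares overlapped with means of the sign of Psi. Most of these genes were low, at 4.33 to 30.4 CPM on average in Ag except Macf1 at 172 CPM.

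For the Tial1 and Luc7l2 exons, shown by sequence with their stops, the readouts parted. The Tial1 exon went from 0.305 to 0.182 by Psi, with shares of 0% to 2.62% in Ag and 0% to 18.1% in Ag+Costim. The Luc7l2 exon had shares of 0.997% to 6.44% in Ag and 1.94% to 59.96% in Ag+Costim, opposite in sign to its Psi. The gene levels rose by 0.80 ± 0.18 (SE) for Tial1 and 0.64 ± 0.19 for Luc7l2 on the log2 scale (edgeR adjusted p = 0.00214 and 0.0105), the latter at 0.0724 under upper-quartile scaling. The Nfatc2 exon of 86 bases, in a factor of calcium-dependent transcription, went from 0.899 to 0.582, with shares of 99.4% to 100% in Ag and 3.03% to 47.7% in Ag+Costim that did not overlap and 2.44% and 67.4% in Naive, so here both readouts were lower in Ag+Costim (edgeR adjusted p = 0.0635 for Ag+Costim against Ag). The exons of 34 bases in the polypyrimidine tract-binding genes Ptbp2 and Ptbp3, whose skipping gives an early stop, went from 0.223 to 0.484 and from 0.213 to 0.278. Their shares overlapped between Ag and Ag+Costim. The means were 73.3% and 81.8% for Ptbp2 and, opposite in sign to Psi, 60.2% and 56.7% for Ptbp3.

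Some genes held many members that moved together. There were 68 genes with 5 or more, and they held 490 members. Vps13a, a lipid transfer protein, held 19, of which 12 were higher in Ag+Costim by more than 0.1 and 0 lower. Heatr5a held 10, with 6 higher and 0 lower and a median difference of 0.297, and Dnajc13, an endosomal protein, held 9, with 6 and 0. No annotated transcript skips 18 of the 19 Vps13a exons or any of those of Heatr5a and Dnajc13. Members of such a gene share its reads and are not independent. Fryl and Usp24 held 15 each, with 1 higher and 0 lower and 1 and 1.

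Gene levels, a measure the rule did not use though it comes from the same reads, were compared last. Of 2335 genes with members that were tested, 853 rose (36.5%) and 682 fell (29.2%) in Ag+Costim against Ag, beside 26.6% and 26.5% of all 18817 genes, with a median log2 fold change of 0.08 against -0.05. Genes with divisible members gave 490 higher and 331 lower of 1255 (median 0.16), and genes with members of other length 502 and 453 of 1461 (median 0.03), the groups sharing 382 genes. Genes with members needed enough reads to yield a Psi, so they are not a random draw of all genes. Upper-quartile scaling moved the median of all genes from -0.05 to -0.24 and turned the balance. Genes with members then gave 688 higher and 878 lower (median -0.12), those with divisible members 395 and 442 (median -0.03) and those with other lengths 400 and 575 (median -0.17), beside 4056 and 6338 of all genes. These medians lay above that of all genes under either scaling.

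Of the splicing list, 193 genes were tested and 103 rose and 35 fell (median 0.34). Under upper-quartile scaling these counts were 81 and 43. Of 23 factors of nonsense-mediated decay 14 rose and 4 fell (median 0.49), or 12 and 6 under upper-quartile scaling. Of the 78 T cell genes 31 rose and 24 fell, or 25 and 32 under upper-quartile scaling. Against Naive, Ag cells had 503 genes with members higher and 903 lower of 2335, beside 24.2% higher and 22.5% lower over all genes. Without Naive replicate 2 the genes with members higher in Ag were 323. For splicing genes it was 48 and 65, and for the decay factors 9 and 10. Without Naive replicate 1 the splicing genes higher were 29, without Naive replicate 2 it was 24 with 43 lower, and the decay factors higher were 5 without either. The erythroid, B cell, myeloid and cycling markers moved between the groups as given above, and their part in these counts was not tested.

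At the limits of the rule the values were as follows. The shortest members had 28 bases (2 exons, Gpr137 among them at a mean Psi of 0.211), and 13 exons of 27 bases, Diaph1 among them at 0.108, lay just outside with 97 exons of 27 bases or fewer in all. At the lower Psi limit BE692007 (191 bases) was just inside at 0.10006 and Rps6kb1 (99 bases) just outside at 0.0999. At the upper limit Nme6 (40 bases) was just inside at 0.89996 and an Nfatc2 exon of 516 bases just outside at 0.90001. The smallest entropy of a member was 0.187.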

How the data were processed

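SMART-Seq v4 libraries of poly(A) RNA were sequenced by the authors, aligned to mm10 with HISAT2 2.1.0 and quantified with StringTie 2.1.0. The deposited gene and transcript counts are whole numbers derived from coverage and are not normalized. Psi is a fraction that the authors computed with Whippet, with 1 value per group, and how replicates were pooled is not given in the sources used here. Entropy is a score in the same deposited table. Its columns for the authors' own Psi difference and probability were not used. Entries without an Ensembl identifier (0.0508% to 0.121% of counts) were left out.

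The members and gene lists were chosen with earlier results of these data known. Exons were matched to GENCODE vM21 by gene name (3599) or position (148), and 5 matched no gene. Including transcripts hold the whole exon, and skipping transcripts have an intron over it. Counts were tested with edgeR 4.0.16 in R 4.3.3 (robust quasi-likelihood, two-sided, all 12 libraries, Benjamini-Hochberg over all features, adjusted p below 0.05). Exons needed 10 including and 10 skipping counts in all and a mean of 20 counts per library. Gene counts were TMM-scaled after filterByExpr. DESeq2 1.42.0 and limma 3.58.1 (offset 0.5) were alternatives. Steps were tested on simulated data, where the gene step found 108 of 200 genes changed by 1 on the log2 scale in Ag+Costim against Ag. SciPy 1.17.1 gave the exact tests. Exons were named when called with a matching Psi difference above 0.1 and a gene above 3 on the log2 CPM scale, or by the highest gene CPM among T cell genes, splicing genes and adjacent pairs. All called members are given, and equal-length families, exons with a stop inside and the largest differences were added after values were seen. Exons of 1 gene that the naming rule picked are not reported here.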

Additional observations from a re-analysis of the deposited data

Results flagged for a closer look

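Of 64 groups of 5 libraries tested for an outlying library by Dixon's ratio, 12 held one, and chance gives about 1 in 20. Ag replicate 4 stood apart in 5 of them. Its total was 24.0 M gene counts (M for mega), the others holding 42.7 to 46.0 M, and its median including share of divisible members was 73.4% (others 67.3% to 68.8%). The level of Camk2g was 18.9 CPM there (others 7.83 to 10.1), of Depdc5 14.2 CPM (others 9.0 to 10.2) and of Luc7l2 50 CPM (others 23.1 to 28.4). Without this library the Camk2g, Cdk19 and Depdc5 exons were still called between Ag+Costim and Ag. Ag replicate 3 gave the lowest Depdc5 share, 96.2% (others 100%), and the highest Zbtb32 share, 82.6% (others 78.9% to 79.3%). In Ag+Costim, replicate 5 placed 0.337% of its transcript counts on the decay-annotated Lars2 transcript (others 0) and so reached 5.5% over the genes with members (others 2.43% to 2.81%). Ag+Costim replicate 2 had a median divisible share of 69.1% (others 66.5% to 66.9%), and replicate 4 had Camk2g at 16.9 CPM (others 12 to 13.4) and Hnrnpa2b1 at 1780 CPM (others 2010 to 2030).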

How the results depend on the processing

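The percent of members divisible by 3 was 41.3% with mean Psi from 0.05 to 0.95 and 49.1% from 0.2 to 0.8. The number of divisible members past the Psi difference was 924 at a size of 0.05, 107 at 0.2, 274 within 0.2 to 0.8 and 273 with 1 member per gene. For other lengths it was 1193, 179, 354 and 383, and 382 in genes above 3 on the log2 CPM scale (chosen after seeing the data). The percent of these higher in Ag+Costim was 60.02% at 0.05, 58.7% at 0.2, 57.9% within 0.2 to 0.8 and 68.8% in the higher genes. Exons called between Ag+Costim and Ag were 33 with limma, 18 with the 2 groups alone and 592 with DESeq2, and members 12, 5 and 202, and 1 with 1 member per gene. Against Naive, Ag gave 63 with limma, 17 with no minimum counts, 0 with the 2 groups alone and 469 with DESeq2 (members 24, 7, 0 and 153), and Ag+Costim 74 with limma and 513 with DESeq2 (members 18 and 149). The cause of these shifts was not tested.

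With the replicate block, 0 exons and 0 members were called (adjusted p of 0.453 for Camk2g, 0.599 for Cdk19 and 0.157 for Depdc5). Same-numbered libraries correlated at 0.0159 to 0.0951 and differently numbered ones at -0.0817 to 0.0746. All of these were small and the ranges overlapped, so the numbers were not taken to pair the libraries. A weak pairing is not excluded by this. Leaving out 1 library at a time gave 2 to 19 exons and 2 to 8 members for Ag+Costim against Ag, 19 to 37 and 3 to 16 for Ag against Naive, and 19 to 30 and 2 to 9 for Ag+Costim against Naive. Genes with members then gave 811 to 892 higher and 622 to 717 lower for Ag+Costim against Ag, and 323 to 534 and 651 to 949 for Ag against Naive. The decay-annotated share differed by -0.496 to -0.377 percentage points. Under upper-quartile scaling the median change of genes with members, Ag+Costim against Ag, went from 0.08 to -0.12 and the balance of calls turned. Unreplicated Psi and the allotment of reads to transcripts limit these values.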
